A study of Mus musculus with 4 samples.

Results

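Axon guidance genes encode the cues and receptors that steer growing nerve fibres. The 71 genes described here were the protein-coding GENCODE M21 genes whose symbols name a semaphorin of classes 3 to 7, a plexin, a neuropilin, an ephrin, an Eph receptor, a Slit, a Robo, a netrin, a netrin-G, an Unc5 receptor or Dcc. They comprised 37 ligands and 34 receptors, out of 21853 protein-coding genes. Membership within these families was set by the symbol alone.

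H3K27ac, the acetylated form of lysine 27 on histone H3 that marks active promoters and enhancers, had been mapped by chromatin immunoprecipitation and sequencing (ChIP-seq) in hippocampal tissue, labelled as a layer of the hippocampus. The 4 samples formed 1 group of B6CASTF1/J hybrid males aged 2 months, with no treatment named. Biological replicate 1 was tissue pool C and biological replicate 2 was tissue pool D, each combining 7 biosamples, and 2 technical replicates per pool were sequenced from fragments sized 200 to 600 bp. The deposited peak lists comprised a replicated list (88930 peaks), a list from both pools together (102643 peaks), a pool C list (94836 peaks) and a pool D list (63623 peaks), and they carried no read totals, so the depth is unknown.

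Secreted semaphorins bind neuropilins, which pass the signal on through plexins, whereas most membrane-bound semaphorins bind plexins directly. Ephrins are tethered to the cell surface and signal to Eph kinases on the neighbouring cell, with signalling also running back into the cell that carries the ephrin. Slits act through Robo receptors, and netrins act through Dcc, usually as attractants, and through Unc5 receptors as repellents. In the mature hippocampus several of these molecules remain at synapses and dendritic spines, having guided the mossy fibres and other layered projections during development.

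A gene was called marked when a peak of the replicated list lay at least in part within 1 kb of a transcription start site (TSS) of any of its protein-coding transcripts. Promoter signal was the highest signal among those peaks, on the authors' own scale, and values from different lists are given side by side without being compared as a change. Covered length counted the bp inside peaks within 10 kb on either side of the gene's main TSS. The tissue was a mixture of cells, so fewer cells of a type and less of the mark per cell cannot be told apart. Of all coding genes 60.8% were marked. All 5 markers each of excitatory neurons, dentate granule cells, CA pyramidal cells and astrocytes were marked, at median signals of 18.8, 12.1, 10.4 and 8.26. Of 6 interneuron markers 2 were marked, at a median of 7.69, with Slc32a1, Sst, Pvalb and Vip unmarked. All 5 oligodendrocyte and all 5 endothelial markers were marked, at median signals of 5.90 and 5.32. Of 4 oligodendrocyte precursor markers 3 were marked (median 6.13), of 5 microglial markers 3 (6.25) and of 5 choroid plexus markers 2 (5.53). The pool D list marked every marker of the excitatory neurons, granule cells, pyramidal cells and astrocytes. It marked 4 oligodendrocyte, 4 endothelial, 2 precursor, 2 microglial, 2 choroid plexus and 1 interneuron markers.

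Of the 71 genes, 61 had an entry in the RefSeq promoter table (GRCm38.p6), which gives 250 bases before and 50 after a start. For each of the 4 ligand and receptor systems the strongest promoter whose start in that table lay within 100 bp of the main TSS is printed here, together with the alphabetically first gene in the table that had no promoter peak in any list, in the 2 systems that held one. They show marked and unmarked promoters side by side. Robo1 stands for its system although Slit1 and Slit3 had higher signals, and Unc5a for its own although Unc5c had a higher one. Capitals mark each CG dinucleotide, and each sequence runs 5′ to 3′ on the gene's own strand.
Sema4b, marked, chr7:80186620-80186919, plus strand: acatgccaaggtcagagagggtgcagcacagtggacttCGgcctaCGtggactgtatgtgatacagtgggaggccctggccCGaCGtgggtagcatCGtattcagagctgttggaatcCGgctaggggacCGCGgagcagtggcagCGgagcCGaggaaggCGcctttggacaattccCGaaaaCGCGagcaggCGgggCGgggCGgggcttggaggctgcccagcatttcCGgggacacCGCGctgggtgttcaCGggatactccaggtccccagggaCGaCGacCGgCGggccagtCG
Sema3g, not marked, chr14:31217623-31217922, plus strand: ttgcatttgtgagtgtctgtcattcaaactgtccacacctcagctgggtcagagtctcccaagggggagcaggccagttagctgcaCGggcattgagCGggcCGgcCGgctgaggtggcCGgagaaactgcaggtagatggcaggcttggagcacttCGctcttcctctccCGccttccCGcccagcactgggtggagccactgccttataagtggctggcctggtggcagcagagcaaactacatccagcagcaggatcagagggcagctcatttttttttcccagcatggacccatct
Ephb2, marked, chr4:136835963-136836262, minus strand: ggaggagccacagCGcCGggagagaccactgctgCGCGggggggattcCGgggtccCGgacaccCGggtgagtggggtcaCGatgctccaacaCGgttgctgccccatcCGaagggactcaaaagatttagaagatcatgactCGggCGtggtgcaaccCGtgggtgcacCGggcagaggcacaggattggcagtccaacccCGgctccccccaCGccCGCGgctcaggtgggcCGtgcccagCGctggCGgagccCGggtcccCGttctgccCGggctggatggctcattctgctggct
Epha1, not marked, chr6:42373219-42373518, minus strand: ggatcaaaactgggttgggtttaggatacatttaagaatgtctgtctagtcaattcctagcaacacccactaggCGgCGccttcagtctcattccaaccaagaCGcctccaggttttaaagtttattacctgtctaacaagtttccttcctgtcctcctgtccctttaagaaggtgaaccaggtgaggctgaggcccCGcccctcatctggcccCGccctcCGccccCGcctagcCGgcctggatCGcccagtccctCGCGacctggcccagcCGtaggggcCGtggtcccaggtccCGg
Robo1, marked, chr16:72662899-72663198, plus strand: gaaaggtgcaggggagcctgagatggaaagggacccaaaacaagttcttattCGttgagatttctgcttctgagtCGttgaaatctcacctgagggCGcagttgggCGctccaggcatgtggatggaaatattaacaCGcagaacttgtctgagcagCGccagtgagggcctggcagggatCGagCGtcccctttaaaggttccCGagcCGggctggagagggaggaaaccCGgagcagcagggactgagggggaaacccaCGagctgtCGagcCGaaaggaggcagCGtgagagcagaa
Unc5a, marked, chr13:54949161-54949460, plus strand: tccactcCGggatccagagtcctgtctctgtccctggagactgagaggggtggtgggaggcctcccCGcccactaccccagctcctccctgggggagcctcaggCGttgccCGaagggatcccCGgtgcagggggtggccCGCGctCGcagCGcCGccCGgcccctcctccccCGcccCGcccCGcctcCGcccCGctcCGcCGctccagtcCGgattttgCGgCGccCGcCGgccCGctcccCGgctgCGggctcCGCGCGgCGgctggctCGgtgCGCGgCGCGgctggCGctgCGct

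The 4 marked promoters held 26 (Sema4b), 24 (Ephb2), 15 (Robo1) and 37 (Unc5a) CG dinucleotides in 300 bases. The unmarked Sema3g promoter held 8 and the unmarked Epha1 promoter 14, close to Robo1. The promoter of the unmarked Epha8, not printed, held 56, the most of the 61. Promoters of marked genes held as few as 2, so the ranges overlapped. The 100 bp limit was applied to printed starts only, so an unprinted sequence may not lie at the start that carried the peak. CG-rich stretches of this kind, known as CpG islands, cover the start sites of many widely used genes.

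The axon guidance genes carried H3K27ac at nearly all of their promoters, but at moderate signal and over long stretches. In the replicated list 66 of the 71 were marked, beside 60.8% of all 21853 coding genes. The median promoter signal of the 66 was 10.7, below the 13.8 of the 13290 marked coding genes, and 26 of the 66 lay above that value. The median covered length was 4055 bp over all 71 genes, beside 1495 bp over all coding genes, and 58 of the 71 exceeded the latter. Of the ligands 34 of 37 were marked, at a median signal of 9.48, and of the receptors 32 of 34, at 11.6. The list from both pools together marked 65 of the 71 (61.7% of coding genes), and 28 of the 66 marked genes had several promoter peaks (32.3% of marked coding genes).

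**Figure D1:**
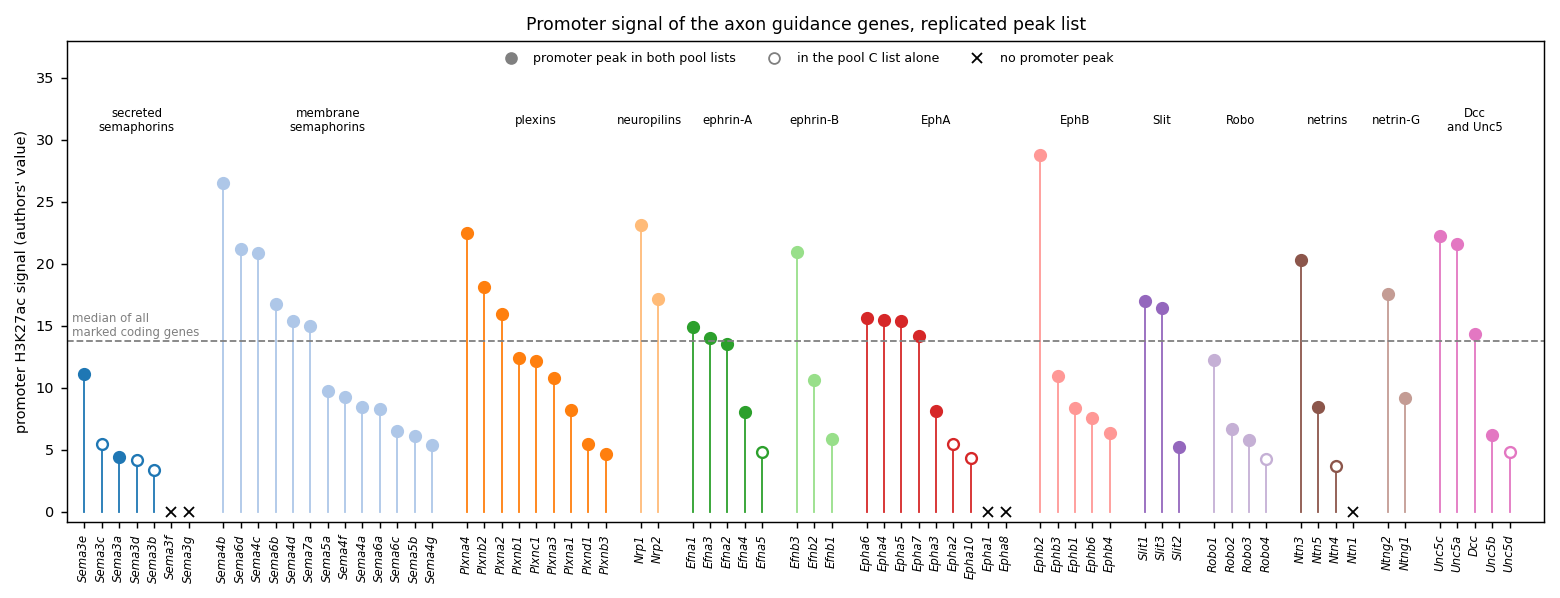
Promoter H3K27ac signal (authors' value, vertical axis) of each of the 71 genes in the replicated list, grouped by family. Filled points had a promoter peak in both pool lists, open points in the pool C list alone, and crosses had none; the highest point is Ephb2 at 28.8, and the dashed line is the 13.8 median of all marked coding genes.

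The 5 genes without a promoter peak in any of the 4 lists were Sema3f, Sema3g, Epha1, Epha8 and Ntn1. The pool C list marked 66 of the 71 (61.4% of coding genes) and the pool D list 57 (57.1%), and all 57 were also in the pool C list (57.0% of coding genes were in both). Of the genes marked in the replicated list 86.4% thus had a promoter peak in both pools, beside 93.7% of marked coding genes, and none was in pool D alone, as 0.119% of coding genes were. The 9 found in pool C alone, beside 4.41% of coding genes, were Sema3b, Sema3c, Sema3d, Efna5, Epha2, Epha10, Robo4, Ntn4 and Unc5d. Their replicated signals ran from 3.35 to 5.44, the low end of the range. The 14 guidance genes with a signal of 5.5 or less included all 9, and among the 1361 coding genes with a signal that low 43.6% were in the pool C list and not in the pool D list. The pool D list held fewer peaks in all, and its depth is not known.

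Ligands were next divided into those released from the cell and those that stay on its surface. All 23 membrane-bound ligands (semaphorins of classes 4 to 7, ephrins and netrin-Gs) were marked, 22 of them in both pools, at a median signal of 10.6. Of the 14 secreted ligands (class 3 semaphorins, Slits and netrins) 11 were marked, 7 of them in both pools, at a median signal of 5.44. The signal ranges overlapped widely, at 4.86 to 26.5 for membrane-bound and 3.35 to 20.3 for secreted ligands. Promoter CpG differed between the same groups, with 17 of the 23 membrane-bound and 6 of the 14 secreted ligands having a CpG-rich main promoter as defined further on, and its part in these counts was not tested.

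The secreted class 3 semaphorins had the lowest median signal of the ligand families, 4.45, with 5 of 7 marked. Sema3e, whose product binds Plxnd1 without needing a neuropilin, stood apart from the other six, with a signal of 11.1 in the replicated list, 11.3 in pool C and 9.02 in pool D. Sema3a, the classic growth cone repellent, reached 4.45 in the replicated list, 5.74 in pool C and 3.78 in pool D, at a TSS inside the gene, with the summit 2609 bp downstream of the main TSS, which had no peak. Sema3c, Sema3d and Sema3b had signals of 5.44, 4.18 and 3.35, each with a pool C peak and no pool D peak. The Sema3b peak also lay away from the main TSS, 1542 bp downstream of it, and was 435 bp wide. With a window of 2.5 kb in place of 1 kb the Sema3b signal was 20.8. Neither Sema3f, the main ligand of Nrp2, nor Sema3g had a promoter peak, and within 10 kb of the main TSS 0 bp were covered at Sema3f and 400 bp at Sema3g.

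All 13 membrane-bound semaphorins were marked in both pools. Sema4b led them at 26.5 in the replicated list, 28.9 in pool C and 17.8 in pool D, followed by Sema6d (21.2) and Sema4c (20.9). The Sema4b peak spanned chr7:80185991-80189868 (mm10), with its summit 567 bp downstream of the main TSS. Sema6b (16.8), the plexin-B1 ligand Sema4d (15.4) and the lipid-anchored Sema7a (15.0), a ligand of Plxnc1, formed a middle group. The other 7 lay between 5.37 (Sema4g) and 9.72 (Sema5a), all below the median of marked genes. The order of Sema4b, Sema6d and Sema4c was the same in both pool lists.

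The semaphorin receptors were all marked in both pools, 11 of 11, at a median signal of 12.4. Nrp1 and Nrp2, the neuropilins that hold secreted semaphorins, were among the strongest, and both had long promoter peaks, 8520 bp at Nrp1 (chr8:128355853-128364372) and 6587 bp at Nrp2 (chr1:62702638-62709224). Nrp1 read 23.1 in the replicated list, 27.9 in pool C and 17.8 in pool D. Nrp2 read 17.2, 19.6 and 13.4 in the same lists, below Nrp1 in each. The secreted class 3 semaphorins ran from no promoter peak (Sema3f and Sema3g) to 11.1 (Sema3e), with Sema3a at 4.45.

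The 9 plexins spread over a wide range. Plxna4, a receptor for class 3 and class 6 semaphorins, was highest at 22.5 (26.5 in pool C, 16.0 in pool D). Plxnb2 (18.2) and Plxna2 (16.0) were the other plexins above the median of marked genes. Plxnb1, Plxnc1, Plxna3 and Plxna1 lay between 8.21 and 12.4. Plxnd1, known mainly from blood vessels, had 5.44, and Plxnb3 had 4.63 with 3.36 in pool D. Plxna3 and Plxnb3 lie on the X chromosome, as does Efnb1, and all 3 were marked in both pools, beside 43.5% of X-linked coding genes in the replicated list.

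All 8 ephrin ligands were marked, at a median signal of 12.1. Efnb3, a transmembrane ephrin, led at 20.9 in the replicated list, 23.2 in pool C and 13.9 in pool D. The lipid-anchored ephrins Efna1 (14.9), Efna3 (14.0) and Efna2 (13.5) lay close together near the median of marked genes. Efnb2, whose product marks arteries in vessels, had 10.6, Efna4 8.01 and Efnb1 5.90. Efna5 had the lowest value, 4.86, with a pool C value of 6.36 and no pool D peak. Its replicated peaks within 10 kb lay wholly upstream of the main TSS, over 2298 bp, although its promoter was CpG-rich.

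The Eph receptors held both the strongest promoter of all 71 genes and 2 of the 5 unmarked ones. Ephb2, a receptor that associates with NMDA receptors at synapses, read 28.8 in the replicated list, 32.8 in pool C and 19.7 in pool D, the highest of the 71 in each. Its strongest promoter peak covered chr4:136835936-136837128, only 1193 bp, with the summit 155 bp upstream of the main TSS. The other EphB receptors were lower, at 11.0 (Ephb3), 8.40 (Ephb1), 7.60 (Ephb6, which lacks kinase activity) and 6.34 (Ephb4, the venous receptor for Efnb2). No EphB receptor lacked a peak in either pool.

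The EphA receptors fell into an upper group and a lower group. Epha6, Epha4, Epha5 and Epha7 lay between 14.2 and 15.6, and in the pool D list they read 12.4, 14.1, 10.5 and 12.3. When the summit had to lie within the 1 kb window, Epha7 had 4.14 and Epha6 no promoter peak. Epha4, which binds ephrins of both classes and acts at dendritic spines, had the second highest covered length among receptors, 12272 bp. Epha3 had 8.10, and Epha2, better known from epithelia, had 5.44 and Epha10, a receptor without kinase activity, 4.34, both with no pool D peak. Epha1 and Epha8 had no promoter peak. Epha8 had 0 bp covered within 10 kb and no peak inside the gene, in any of the replicated, pool C or pool D lists.

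Slit1 and Slit3 were marked at similar levels, and Slit2 at a much lower one. The replicated signals were 17.0 for Slit1, 16.4 for Slit3 and 5.21 for Slit2. In pool C the same genes read 18.9, 18.1 and 6.89, and in pool D 12.7, 12.6 and 3.96. All 3 had CpG-rich promoters and a promoter peak in both pools, and in each list Slit2 was well below the others. The 4 Robo receptors had a median of 6.22, with all 4 below the median of marked genes. Robo1 was highest at 12.2 (14.0 in pool C, 7.92 in pool D), Robo2 had 6.68, Robo3, known from commissural axons, 5.75, and Robo4, the endothelial member, 4.28 with no pool D peak.

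Among the netrins the founding member Ntn1 had no promoter peak and 0 bp covered within 10 kb of its main TSS. Ntn3 had the highest netrin value, 20.3 (19.0 in pool C, 13.2 in pool D), but its 9404 bp promoter peak also held a TSS of Tbc1d24, and the summit lay 2637 bp upstream of the Ntn3 TSS, so the signal cannot be assigned to either gene. It was the only marked gene of the 66 whose promoter peak reached another coding gene's start window, beside 21.1% of marked coding genes. Ntn5 had 8.44, with 9.78 in pool C and 3.17 in pool D, and Ntn4, a basement membrane netrin, had 3.70 and no pool D peak.

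The netrin-Gs are lipid-anchored relatives that bind the synaptic adhesion proteins Lrrc4c and Lrrc4 and do not act through Dcc. Ntng2 had 17.6 (19.6 in pool C, 14.0 in pool D) and Ntng1 9.14 (10.7 and 8.60). In both the strongest peak lay upstream of the annotated main TSS, with the summit at 5240 bp for Ntng2 and 7281 bp for Ntng1, at other coding start sites of the gene. At its main TSS alone Ntng2 had a signal of 2.89. A peak lay within 1 kb of the main TSS in 63 of the 71 genes, beside 58.8% of coding genes, and these were 63 of the 66 marked genes, beside 96.8% of marked coding genes. The marked exceptions were Ntng1, Sema3a and Sema3b.

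All 5 netrin receptors were marked. Unc5c (22.2 in the replicated list, 26.9 in pool C, 18.2 in pool D) and Unc5a (21.6, 29.5 and 13.9) were high, and Dcc had 14.3 (16.4 and 10.9). Unc5b had 6.21 (7.94 and 3.96), and Unc5d had 4.86 with no pool D peak. Unc5c and Unc5a were thus above both paralogues in each list that held them. Of the netrins, Ntn1, a ligand they share, was unmarked. Ntn3, Ntn5 and Ntn4 were marked, at 20.3 (in the peak shared with Tbc1d24), 8.44 and 3.70.

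Coverage around the start sites extended mostly into the genes. More bp were covered downstream than upstream of the main TSS in 57 of the 71 genes, beside 42.8% of all coding genes. Among marked genes this held for 56 of the 66, beside 65.4% of marked coding genes. Among the 66 marked genes the median was 3199 bp downstream and 918 bp upstream, and among the 13290 marked coding genes it was 1348 and 917 bp. The exceptions with more upstream coverage numbered 11 and included both netrin-Gs, Efna2, Efna5, Robo2, Robo4 and Ephb2. The strongest promoter summit lay downstream of the main TSS in 48 of the 66 genes and upstream in 18, and its median position over all 66 was 227 bp downstream. Summit positions were not counted over all marked coding genes, so these values have no background beside them.

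**Figure D2:**
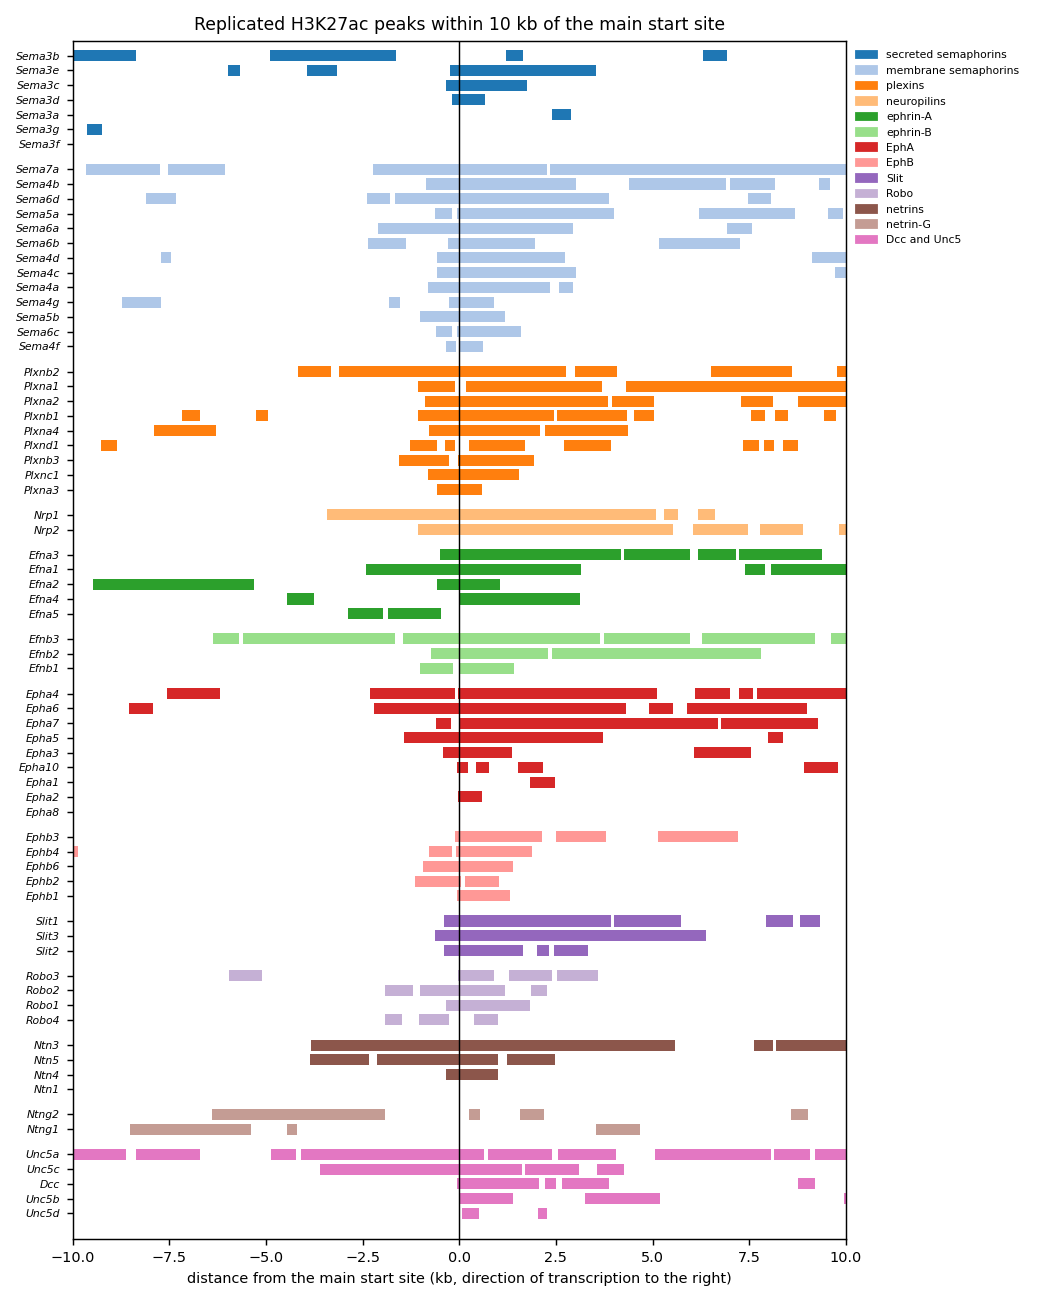
Replicated H3K27ac peaks (bars) within 10 kb of the main start site of each of the 71 genes, drawn in the direction of transcription and coloured by family; the horizontal axis is distance in kb. In 57 genes more of the bar length lies to the right of the start site than to the left, and the rows of Sema3f, Epha8 and Ntn1 are empty.

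The long coverage was present in marked genes of either length class. Marked guidance genes had a median covered length of 4703 bp, beside 2661 bp over all marked coding genes. For those of 100 kb or more the values were 4504 and 2679 bp, and for shorter genes 5191 and 2656 bp. Guidance genes also stood further from their neighbours, with 5 of 71 having a TSS of another coding gene within 10 kb of the main TSS, beside 30.2% of coding genes. Among marked genes without such a neighbour the median covered length was 4504 bp for the 62 guidance genes and 2405 bp for the 8729 coding genes.

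At 8 of the 71 genes peaks filled at least 10 kb of the 20 kb centred on the main TSS, beside 2.69% of coding genes. Unc5a had the most, 16238 bp, followed by Sema7a (15532 bp), Efnb3 (15218 bp), Epha4 (12272 bp), Ntn3 (11691 bp), Epha6 (10868 bp), Plxnb2 (10168 bp) and Plxna1 (10144 bp). Epha7 (9561 bp) and Efna3 (9500 bp) came next. None of these 10 other than Ntn3 had another coding gene's TSS within 10 kb. Coverage and signal did not go together at every gene: Plxna1 had 10144 bp with a signal of 8.21, and Ephb2 had the highest signal with 2082 bp.

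A promoter peak of 5 kb or more was found at 15 genes, beside 3.99% of coding genes and 6.57% of marked ones. The widest after Ntn3 and Nrp1 were those of Plxna1 (7487 bp), Slit3 (7020 bp), Epha7 (6682 bp), Nrp2 (6587 bp) and Epha6 (6525 bp). That of Plxna1 lay at another coding TSS of the gene, and its widest peak within 1 kb of the main TSS measured 3533 bp. Plxnb2, Efna1, Sema6d, Unc5c, Epha4, Epha5, Efnb3 and Sema6a made up the rest, between 5057 and 5872 bp. Plxna2 (4732 bp) and Unc5a (4716 bp) lay just under the limit. The upper EphA group was thus complete among these broad promoters, and no EphB receptor was.

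Coverage was also taken from each pool list on its own. The covered length was greater in the pool C list at 67 genes, greater in the pool D list at Sema3e alone (3604 bp in C, 3704 bp in D), and 0 in both at Sema3f, Epha8 and Ntn1. The median ratio of pool D to pool C was 0.661 over the 68 genes with coverage in pool C, beside 0.677 over 14775 coding genes. Unc5a, Efnb3 and Sema7a were the 3 genes with the most coverage in both lists, at 17084, 15740 and 15481 bp in pool C and at 10003, 10442 and 11012 bp in pool D. Of the 104 promoter peaks of the guidance genes, 77 (74.0%) were overlapped by a pool D peak and 101 by a pool C peak, beside 85.8% overlapped by pool D for all 17280 replicated peaks at coding promoters.

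**Figure D3:**
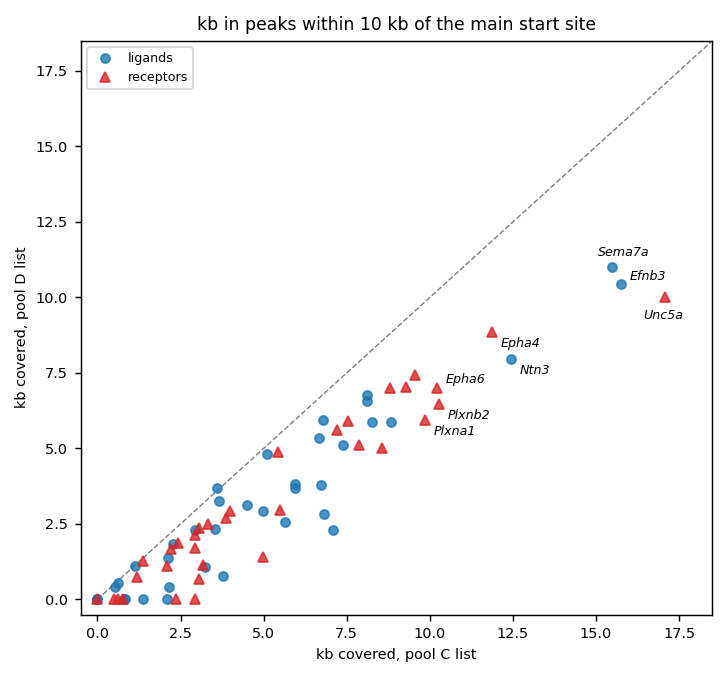
Length in peaks (kb) within 10 kb of the main start site in the pool C list (horizontal) and the pool D list (vertical) for each gene, with ligands as circles, receptors as triangles and a dashed line of equal length. Sema3e alone lies above the line, and Unc5a, Efnb3 and Sema7a lie furthest out.

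Many guidance genes also held peaks inside the gene and more than 1 kb from any coding TSS, a position where enhancers can lie. Such peaks were present in 54 of the 71 genes, beside 36.5% of coding genes. Guidance genes are often long, and within the length classes the figures were 31 of 33 genes of 100 kb or more (85.9% of such coding genes) and 23 of 38 shorter genes (30.2%). Among the long genes the median was 3.47 peaks per 100 kb, beside 3.40 for all long coding genes. The median density of the long guidance genes was thus near that of long coding genes in general. Among marked genes of 100 kb or more, 30 of 32 guidance genes and 1876 of 2044 coding genes had such a peak. Their median densities were 3.86 and 4.36 peaks per 100 kb. Among shorter marked genes the counts were 21 of 34 guidance genes and 5064 of 11246 coding genes.

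Slit3 alone held 120 of the 726 such peaks in the 54 genes, which covered 170306 bp or 29.0% of the gene, with 134 such peaks in the pool C list and 85 in pool D. Slit1 had 31 peaks over 52097 bp (36.3% of the gene), whereas Slit2, of 325 kb, had 2 peaks over 1182 bp. Slit2 was thus the lowest of the Slit genes both inside the gene and at the promoter. Nrp2 (38 peaks, 55364 bp, 48.0%) and Epha4 (46 peaks, 47832 bp, 32.3%) had the highest densities of the long genes, 32.9 and 31.1 peaks per 100 kb. Plxna4 (60414 bp), Sema6d (40440 bp), Epha6 (37000 bp), Sema5a (34436 bp), Plxna2 (34343 bp) and Epha7 (26245 bp) completed the 10 genes with the most bp. By share of length the short gene Sema7a came first, with 80.6% of its 22.8 kb in such peaks, of which the widest, in intron 1, measured 13725 bp. That widest peak began at chr9:57942458, close to the end of the promoter peak at chr9:57942372. Part of it lay within 10 kb of the main TSS and was counted in the covered length too.

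At the other end, Sema3c and Sema3d, genes of 156 and 206 kb, had no peak of this kind. Dcc, the longest of the 71 at 1097 kb, had 19 peaks over 1.24% of its length, and Sema3a had 3 peaks in 477 kb. Robo1, Robo2, Unc5d and Efna5 likewise had fewer than 2 peaks per 100 kb. Ntn1, unmarked at its promoter, had 2 peaks inside the gene that covered 998 bp.

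**Figure D4:**
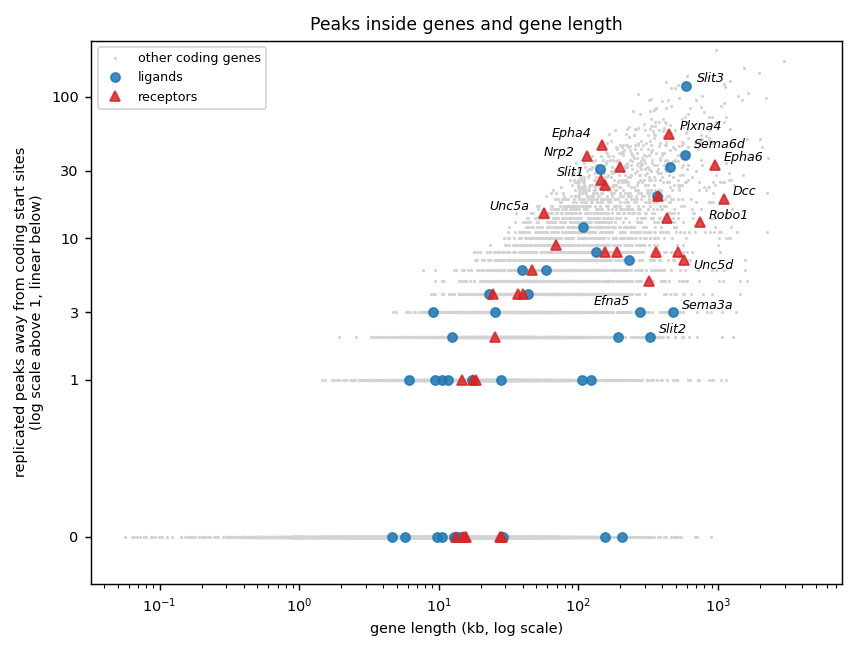
Number of replicated peaks inside each gene and more than 1 kb from any coding start site (vertical, logarithmic above 1 and linear below) against gene length in kb (horizontal, logarithmic). Grey points are other coding genes, circles ligands and triangles receptors; Slit3 with 120 peaks is the highest of the 71, and Slit2 with 2 peaks and Sema3a with 3 lie low for their length.

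Of the 726 peaks, 650 had the summit in an intron of the main transcript, 172 of them in intron 1, 35 had it in an exon and 41 outside the main transcript. The median width was 910 bp and the median signal 3.70, beside 3.91 for all 71650 replicated peaks away from coding TSSs. A pool C peak overlapped 595 of them and a pool D peak 332, and 116 were overlapped by neither pool list. Over all peaks of this kind, the shares overlapped by pool C or by neither list were not counted. The share overlapped by pool D was 45.7%, beside 48.2% for all peaks of this kind. At 6 of the 51 genes with both kinds of peak the strongest internal peak exceeded the promoter (Epha3, Epha10, Ntng1, Plxnc1, Sema3b and Unc5b). This stands beside 11.9% of the 6940 coding genes with both kinds, a similar share.

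Internal peaks above the 13.8 median of marked promoters were found in Epha3, Ephb2, Sema4d, Slit3 and Slit1. In Epha3 a peak in intron 1 (chr16:63856608-63858081), 6.75 kb downstream of the main TSS, had a signal of 15.3, above the 8.10 of the promoter. In Ephb2 a peak in intron 3 (chr4:136740727-136744990), 93.3 kb downstream, had 15.2. In Sema4d a peak in intron 1 (chr13:51775473-51780168), 15.9 kb downstream, had 14.6, close to the 15.4 of its promoter. A peak in intron 4 of Slit3 and another in intron 4 of Slit1 each had 14.5, and a further peak in intron 3 of Ephb2 had 13.9. All 6 were overlapped by peaks of both pools. The 150 bases around the summits of the 3 strongest are printed from the GRCm38 plus strand, 5′ to 3′, and capitals again mark CG.
Epha3 intron 1, chr16:63857338-63857487: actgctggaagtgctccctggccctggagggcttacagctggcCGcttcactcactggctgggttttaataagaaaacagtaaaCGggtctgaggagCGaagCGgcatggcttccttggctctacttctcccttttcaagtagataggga
Ephb2 intron 3, chr4:136742611-136742760: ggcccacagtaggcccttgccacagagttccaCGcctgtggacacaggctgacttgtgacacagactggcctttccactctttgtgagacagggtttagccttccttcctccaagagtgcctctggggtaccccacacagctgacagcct
Sema4d intron 1, chr13:51777757-51777906: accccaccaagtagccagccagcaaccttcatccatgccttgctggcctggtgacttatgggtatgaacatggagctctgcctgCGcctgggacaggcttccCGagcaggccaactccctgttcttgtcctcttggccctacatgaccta

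These windows held 4, 1 and 2 CG dinucleotides in 150 bases, and the promoters printed above held 8 to 37 in 300 bases. The lengths differ, so the counts cannot be compared directly. Per base, the Epha3 window had the same rate as the Sema3g promoter, which held 8.

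The main promoters were CpG-rich, with observed over expected CpG of 0.6 or more in 500 bp on each side of the TSS, in 48 of the 71 genes, beside 47.6% of coding genes. Of the 48, 47 were marked, beside 91.6% of CpG-rich coding promoters, and the exception was Epha8 at 0.882. Of the other 23, 19 were marked, beside 32.9% of such coding promoters. The signals of these 19 ran from 3.35 (Sema3b) to 20.9 (Efnb3), with a median of 8.44, and 15 of them had a promoter peak in both pools. Among them Efnb3 (observed over expected CpG 0.572), Ntn3 (0.443) and Ntng2 (0.263) had the highest signals, and Sema3b, Sema3d, Robo4, Epha10, Sema3a and Plxnb3 the lowest, from 3.35 to 4.63. The unmarked 4 were Sema3f, Sema3g, Epha1 and Ntn1.

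**Figure D5:**
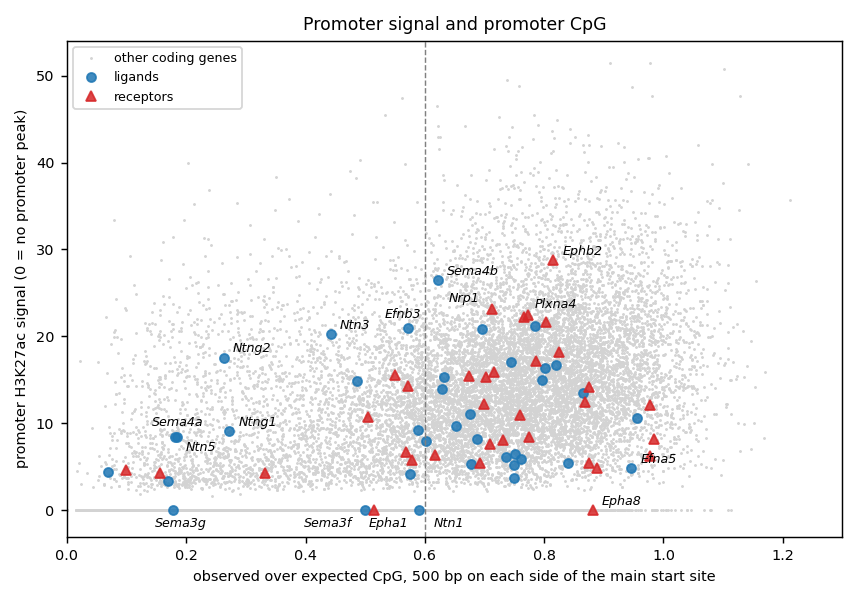
Promoter H3K27ac signal (vertical, 0 where there was no promoter peak) against observed over expected CpG within 500 bp of the main start site (horizontal). Grey points are other coding genes, circles ligands and triangles receptors; of the unmarked genes Epha8 alone lies right of the dashed line at 0.6.

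Short sequence motifs were counted on both strands in the 300 base promoters. The GC box GGGCGG was present in 43 of the 61 guidance promoters (70.5%), beside 48.4% of all 16514. The TATA sequence TATAAA was present in 2 (3.28%, beside 12.9%) and CCAAT in 18 (29.5%, beside 38.6%). TGACGTCA, the full cAMP response element, was present in 1 (1.64%, beside 2.41%). The E-box CAGCTG was present in 11 of the 61 (beside 15.2%) and the E-box CAGATG in 5 (8.20%, beside 14.3%). The median number of CG dinucleotides was 22 per guidance promoter and 14 per promoter in the whole table. GGGCGG itself contains a CG, so its count moves with CpG content. A match describes the letters and not a bound site.

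Genes that act with or below these receptors were read in the same way. Of 73 listed partners and effectors 71 were marked (60.8% of coding genes) and 70 had a promoter peak in pool D. Their median signal was 16.2, and 48 of the 71 lay above the median of marked genes. Long coverage was not particular to the guidance genes. The partners had a median covered length of 3684 bp, beside 4055 bp for the guidance genes and 1495 bp for all coding genes. In 57 of the 73 more bp were covered downstream than upstream (42.8% of coding genes). A promoter peak of 5 kb or more was found at 18 (3.99%). Partners of 100 kb or more had a median of 9.03 internal peaks per 100 kb, beside 3.47 for such guidance genes. Among 18 co-receptors and modulators, Lrrc4 (30.3) and Lrrc4b (24.6), synaptic adhesion proteins of the family that binds netrin-Gs, were highest. Draxin, a netrin antagonist, and Flrt1, a relative of the Unc5 ligands, were the 2 unmarked genes. All 17 genes of plexin and neuropilin signalling were marked, led by the kinase Gsk3b (32.9) and Dpysl2 (23.2), which encodes the collapsin response mediator CRMP2.

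All 11 genes of Eph signalling were marked, led by the adaptor Nck1 (24.1) and the Ras GTPase activator Rasa1 (23.7). All 8 of Slit and Robo signalling were marked, led by the kinase Abl2 (29.8) and the GTPase activator Arhgap39 (22.9). All 8 of netrin signalling were marked, led by the ubiquitin ligase Trim9 (27.3) and the exchange factor Trio (23.6). Of the 4 netrins themselves 3 were marked, and Ntn1 was not. Of the 11 shared effectors of the cytoskeleton, all marked, the GTPase Rhoa (28.3) and its kinase Rock1 (21.6) were highest.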

How the data were processed

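H3K27ac ChIP-seq peaks of 4 samples from 2 pools were used as deposited. The authors deposited 4 narrowPeak lists on mm10, per the file headers and labels, 1 of replicated peaks, 1 from both pools together and 1 from each pool. The deposited signal per peak is the authors' own value. A −log10 q per peak was deposited by the authors too and served to filter peaks. Signal scaling, aligner and peak caller were not given in the sources used here. Without read totals the depth is unknown, and a missing peak was not detectable at this depth.

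Genes and coding TSSs came from GENCODE M21 without the mitochondrial genes, and a main TSS was taken by APPRIS rank, then CCDS, then transcript length. In each list 0 peaks ran beyond the end of a GRCm38 chromosome, a check that does not by itself establish the build. Promoter calls and covered lengths were tested on simulated data. The gene families, lists and naming rules were chosen with earlier results of these data known. Every gene of the families could be named, with values given for the extremes of each family, genes unmarked or marked in 1 pool, and the 10 with the most coverage or internal bp. For each list of partners the 2 strongest and all unmarked genes are named. Promoters were printed by the rule of the strongest per system, passing over starts more than 100 bp from the main TSS, a limit added after the values were seen. No p-values are given, since there was 1 group. Alternatives were other lists, windows, peak thresholds and CpG settings. Strain variants were not analysed here. Python 3.11.15, numpy 2.4.6, pysam 0.24.0 and matplotlib 3.10.9 were used.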

Additional observations from a re-analysis of the deposited data

How the results depend on the processing

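The number of marked guidance genes ranged from 57 to 67 of 71 over all alternatives, ligands from 29 to 34 and receptors from 28 to 33. The marked share of all coding genes moved too. It was 62.3% with a 2.5 kb window, which gave the 67. Without peaks shared with another coding gene it was 49.8%, beside 65 guidance genes. Leaving out a pool, by using the other pool's list, gave 57 to 66 marked genes, beside 57.1% to 61.4% of coding genes. It gave 29 to 34 ligands, 28 to 32 receptors and 45 to 51 genes with an internal peak. The median covered length was 2578 to 3877 bp beside the 4055 bp reported. Over all coding genes it was 999 to 1525 bp, beside 1495 bp. The lower end of each came from the pool D list. With a covered window of 2 kb the median was 2328 bp and with 25 kb it was 6248 bp, which follows from the window. A CpG threshold of 0.75 in place of 0.6 left 26 CpG-rich promoters in place of 48, since a higher threshold keeps fewer. With CpG taken in 150 bp on each side of the main TSS the number was 56. The CpG-rich share of all coding genes was not counted under either setting. The median promoter signal lay between 9.48 (summit required in the window) and 10.8. Genes with an internal peak numbered 41 among peaks above the median signal, 49 with an exclusion of 2.5 kb and 53 when both pools were taken in 1 list, beside 54 reported. The share of coding genes with an internal peak, 36.5% as reported, was not counted under the alternatives. Single promoter signals that moved were those of Sema3b (20.8 with a 2.5 kb window), Ntng2 and Robo3 (2.89 and 4.01 at the main TSS only), and Epha7 and Sema6a (4.14 and 3.59 with the summit in the window). Epha1 gained a promoter peak with a window of 2.5 kb. Dcc, Efna3, Efna5, Epha6, Ntn3 and Ntn5 lost theirs when the summit had to lie in the window, Sema3b lost its own with a 500 bp window, and Sema3d in the list from both pools together. Ntn4, Robo4, Sema3b and Sema3d lost theirs among peaks above the median signal. No paired analysis was possible because the samples formed 1 group.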

Other observations

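A few features of single genes stood outside the comparisons and are given as values. At Sema3d the promoter signal was 4.18 in the replicated list and 4.87 in the pool C list, and the list from both pools together held no promoter peak. Sema3b had 5948 bp covered within 10 kb, 4892 bp of it upstream of the main TSS, with a promoter signal of 3.35. Sema3g, unmarked, had 819 bp covered within 10 kb in the pool C list and 0 bp in the pool D list.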
